A study of Mus musculus with 9 samples.

Results

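The clustered replication-dependent histone genes of the mouse encode the histones H2A, H2B, H3 and H4 that package newly copied DNA. The genes described here were chosen by name: every non-control probe whose accession maps to a mouse symbol of the H2ac, H2bc, H3c or H4c series, or to an older Hist1 to Hist4 name of the same types, was taken. This gave 46 of 39429 probes and 41 of 32451 genes or accessions on the array, namely 14 H2A, 11 H2B, 7 H3 and 9 H4 genes, while the name table lists 64 such genes. H2aw, H2bu2 and H4f16 were found by an older name only (Hist3h2a, Hist3h2ba and Hist4h4). Of the 41 genes, 40 passed the filter on dim probes (13 H2A, 11 H2B, 7 H3 and 9 H4). The remaining one, H2ac6, was well above background on 0 of the 9 arrays. Levels played no part in the naming rule, but the set was put forward with earlier results of these arrays known, so counts and medians over it are a description and carry no test of the set.

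RNA was taken from the spleen of female BALB/c mice and hybridised to 9 Agilent arrays in 1 colour, with 3 arrays in each of 3 groups. The low Se non-GD group had no Graves' disease and a low dietary selenium supply, the low Se GD group had Graves' disease and the same low supply, and the normal Se GD group had Graves' disease and a normal supply. All animals shared strain and sex, and a group with a normal supply and no disease was not analysed here. The sources used here give neither ages nor the way in which disease was induced nor the selenium content of the diets, and they do not state whether replicates were separate animals, so p-values speak only to the spread among these 9 samples, and that spread may be technical. The disease comparison sets low Se GD beside the disease-free group, the selenium comparison sets normal Se GD beside low Se GD, and the joint comparison sets normal Se GD beside the disease-free group. Each difference is the first group minus the second. The first and second share the low Se GD arrays, and the joint comparison shares arrays with both, so the 3 sets of values are given side by side and are not independent.

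Each nucleosome wraps DNA around an octamer built from H2A-H2B dimers and H3-H4 dimers. Replication-dependent histone genes are transcribed in S phase from clusters that the transcription factor coactivator NPAT marks, and their intronless transcripts end in a stem-loop, bound by SLBP, in place of a poly(A) tail. In the spleen, cells in S phase include activated B and T lymphocytes and, in the mouse, erythroid precursors. Many copies encode nearly the same protein, so that probes of neighbouring genes can read each other's transcripts, and labelling by the manufacturer's method as usually run starts at poly(A) tails. Probe sequences were not used here and the primer is unstated in the sources at hand, so cross-hybridisation and the form of transcript measured were not tested.

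The promoters that drive these genes differ by histone type in the short motifs they carry, and 6 are shown because their genes recur in the comparisons. RefSeq promoter windows on GRCm38.p6, from 250 bases before to 50 bases after the start, were found for 36 of the 41 genes. Each line gives the 120 bases before the start on the gene's own strand, 5′ to 3′, with capitals for the octamer ATTTGCAT, the CCAAT box CCAAT and the TATA box TATAAA, searched on both strands, so that ATTGG is a CCAAT box in reverse. H2ac22 lies at chr13:21787249-21787368 (minus strand), H2ac8 at chr13:23571221-23571340 (minus strand), H2bc8 at chr13:23571280-23571399 (plus strand), H2bc18 at chr3:96269580-96269699 (plus strand), H3c11 at chr13:21783398-21783517 (minus strand) and H4c11 at chr13:21734914-21735033 (plus strand).
H2ac22: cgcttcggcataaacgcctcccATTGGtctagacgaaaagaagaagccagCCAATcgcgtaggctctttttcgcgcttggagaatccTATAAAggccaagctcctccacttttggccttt
H2ac8: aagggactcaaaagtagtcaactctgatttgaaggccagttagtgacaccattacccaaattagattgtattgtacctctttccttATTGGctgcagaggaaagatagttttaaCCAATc
H2bc8: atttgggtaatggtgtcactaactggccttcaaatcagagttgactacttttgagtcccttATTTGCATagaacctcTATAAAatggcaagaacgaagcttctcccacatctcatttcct
H2bc18: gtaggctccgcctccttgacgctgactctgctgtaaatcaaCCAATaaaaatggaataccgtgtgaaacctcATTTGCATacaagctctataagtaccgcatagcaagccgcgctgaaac
H3c11: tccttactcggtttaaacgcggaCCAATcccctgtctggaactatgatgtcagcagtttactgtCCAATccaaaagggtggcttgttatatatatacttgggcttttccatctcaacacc
H4c11: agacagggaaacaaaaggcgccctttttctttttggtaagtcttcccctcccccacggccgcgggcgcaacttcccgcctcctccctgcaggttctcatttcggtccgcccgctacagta
In the full windows the octamer, the known binding site of the POU factor OCT1, was present for 7 of 14 H2A genes and 5 of 9 H2B genes and for 0 of 5 H3 and 0 of 8 H4 genes, against 1.74% of all 32851 windows. The CCAAT box was present for 14 of 14 H2A, 9 of 9 H2B and 5 of 5 H3 genes but for 2 of 8 H4 genes, against 37.4% of all windows. TATAAA was found for 10 of 14 H2A, 5 of 9 H2B, 2 of 5 H3 and 5 of 8 H4 genes, against 13.6% of all windows. Matches of different motifs overlapped in 0 of the histone windows and in 48 of all windows. In the lines above, the octamer can be seen in H2bc18 and H2bc8, and H2ac22 carries paired CCAAT boxes ahead of a TATA box. H2ac8 and H2bc8 are transcribed away from each other, and the printed stretches of the pair overlap. A match describes letters in a window and no binding was measured.

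Some arrays stood apart in ways that touch these genes. Between 72.6% and 82.6% of non-control probes were well above background on 8 arrays, but only 58.4% on normal Se GD replicate 3, where 31 of the 41 histone genes were well above background against 38 to 40 on the other arrays. Array low Se non-GD replicate 3 gave the middle value of its group for 31 of the 40 histone genes (70.9% of all genes tested), and low Se GD replicate 2 for 21 of 40 (63.3% of all genes), so these 2 arrays are called in-between arrays. The probe of the ribosomal RNA gene Rn28s1 read, as log2 signal minus the 75th percentile of the array, 0.45 to 0.83 without disease and 3.0 to 5.99 on the 6 GD arrays, and the probe of an Agilent spike-in control, an added RNA, read 4.72 to 5.85 and 0.87 to 2.51. Both separate the disease-free arrays from the GD arrays, and their part in the results was not tested. Arrays sharing a scan time were taken as 1 slide. The 3 disease-free arrays shared slide 1 with replicate 1 of low Se GD. On slide 2 the remaining low Se GD arrays, 2 and 3, sat beside replicates 1 and 2 of normal Se GD, whose replicate 3 had slide 3 to itself.

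Histone transcripts were mostly higher in diseased than in disease-free spleens on the low selenium supply. Signals are given as log2 of the processed signal minus the 75th percentile of the array, so 0 is the level of a fairly bright probe, and they compare arrays for 1 probe, not probes with each other. In the disease comparison 13 of the 40 genes rose and 1 fell at a Benjamini-Hochberg adjusted p under 0.05 in limma, where 12.8% of all 26325 genes tested were called higher and 12.2% lower. Values for 36 of the 40 were positive, with a median log2 difference of 0.50 against 0.08 over all genes tested. The low Se GD arrays lay wholly above the disease-free arrays for 25 of the 40 genes and wholly below for 2, against 29.5% and 23.4% of all genes. In bulk spleen RNA, fewer cells of a type and less RNA per cell cannot be told apart, nor can more cells and more RNA per cell.

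Between the supplies, the histone genes had mostly lower values with normal selenium, but few passed the test. In the selenium comparison 0 of the 40 genes rose and 3 fell in limma, where 0.976% of all genes were called higher and 0.292% lower. An unadjusted p under 0.05 in limma, in either direction, was found for 24 of the 40 and for 5112 of all 26325 genes tested. Differences for 36 of the 40 were negative, with a median of -0.64 on the log2 scale against 0.00 over all genes. The normal Se GD arrays lay wholly below the low Se GD arrays for 25 of the 40 genes and wholly above for 1, against 11.4% and 17.9% of all genes. In the joint comparison 6 genes were called higher and 5 lower, with 18.9% and 13.4% of all genes called, and the median was -0.10 against 0.06 over all genes. Under normexp background correction the median of all genes shifted by -0.24 in the disease and by 0.16 in the selenium comparison, and relative to the median of all genes the histone median was then 0.58 and -0.55.

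**Figure D1:**
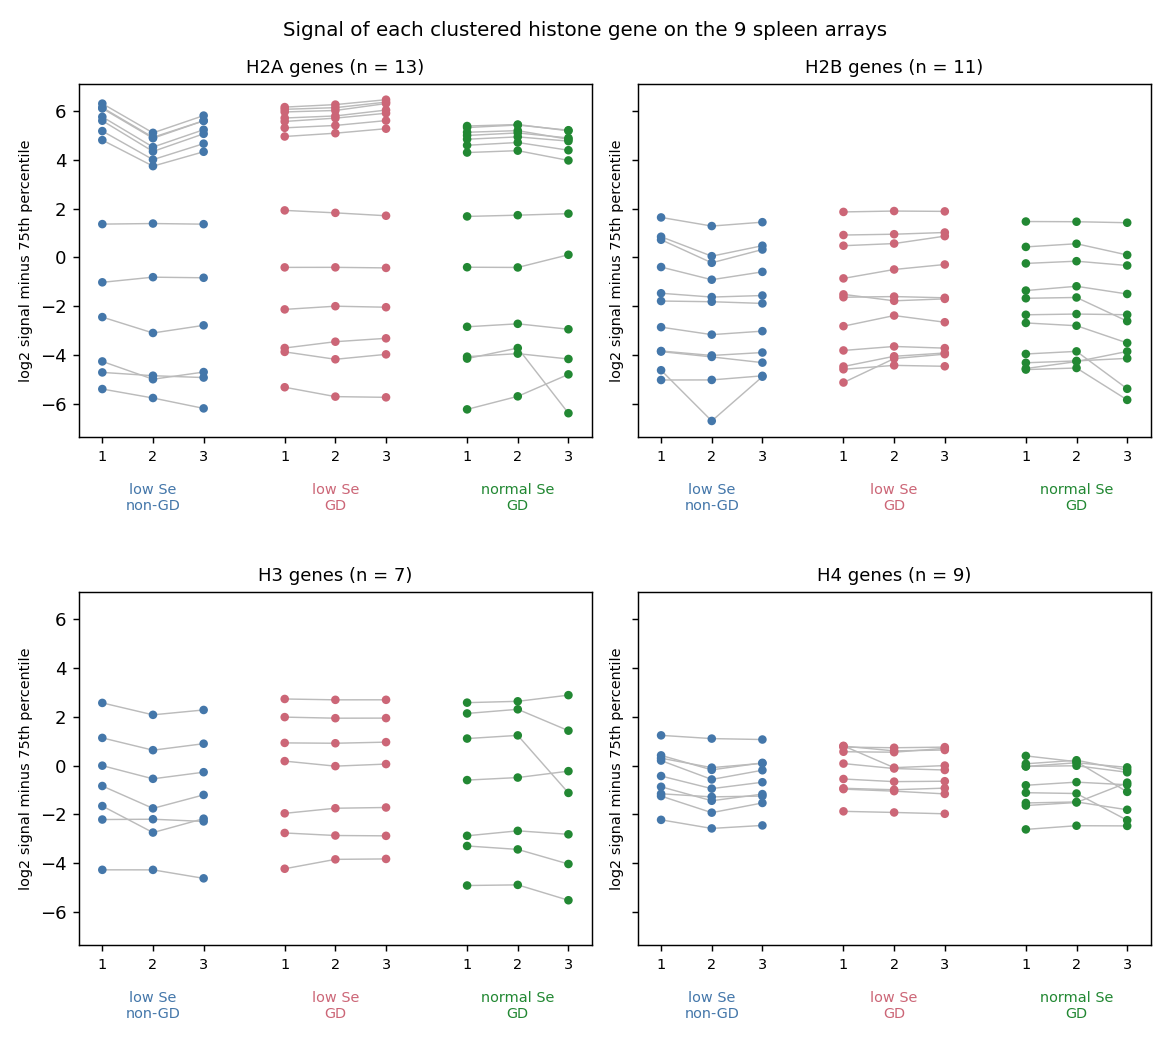
Log2 signal minus the 75th percentile of the array (y axis) for each tested histone gene on the 9 arrays (x axis: replicate number within each group), with 1 panel for each histone type and grey lines joining the values of 1 gene within a group, which imply no order. Low Se non-GD replicate 2 is low for most genes, and 7 H2A genes form a separate band of strong signals.

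H2A pairs with H2B in the dimer that lies on each face of the nucleosome. Of the 13 H2A genes, 3 rose and 0 fell in the disease comparison, and all 13 differences were positive, with a median of 0.68. Counts by histone type stand beside 12.8% of all genes called higher and 12.2% lower for disease, and 0.976% and 0.292% for selenium. H2ac8 read -4.27, -5.00 and -4.70 without disease, -3.72, -3.46 and -3.32 in low Se GD, and -4.07, -3.95 and -4.17 in normal Se GD. The low Se GD arrays were highest throughout and no groups overlapped. H2ac8 rose by 1.16 ± 0.19 (limma standard error), 2.23-fold, in the disease comparison (limma adjusted p = 0.00516). Its probe is dim, and under normexp background correction the disease difference of H2ac8 became 0.12. In the selenium comparison its difference of -0.56 ± 0.19 did not pass (adjusted p = 0.17), and in the joint comparison it rose by 0.59 ± 0.19 (adjusted p = 0.0497), a call kept under 2 and lost under 18 of the alternatives.

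H2ac4 read -2.45, -3.10 and -2.79 without disease, -2.13, -2.0 and -2.04 in low Se GD, and -2.84, -2.72 and -2.95 in normal Se GD. Its low Se GD values stood above both other groups, which overlapped each other. It rose by 0.72 ± 0.16 in the disease comparison (limma adjusted p = 0.0162), while the selenium difference of -0.78 ± 0.16 did not pass (adjusted p = 0.065). Under normexp background correction its disease difference became 0.22. H2ac18, from the cluster on chromosome 3, behaved otherwise, with 1.37, 1.39 and 1.37 without disease, 1.93, 1.83 and 1.71 in low Se GD and 1.68, 1.73 and 1.80 in normal Se GD. Both GD groups lay above the disease-free arrays and overlapped each other. It rose by 0.45 ± 0.09 in the disease comparison (limma adjusted p = 0.0106) and by 0.36 ± 0.09 in the joint comparison (adjusted p = 0.0188), with a selenium difference of -0.09 ± 0.09 (adjusted p = 0.648).

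A band of 7 H2A probes, set apart after their values were seen by a mean signal above 3, moved almost as 1 probe: H2ac10, H2ac11, H2ac12, H2ac15, H2ac19, H2ac20 and H2ac22. The median of the 7 was 5.77, 4.53 and 5.24 without disease, 5.72, 5.81 and 6.05 in low Se GD, and 5.01, 5.11 and 4.85 in normal Se GD. Replicate 2 of low Se non-GD was the lowest and replicate 1 as high as a GD array. The low Se GD and disease-free arrays thus overlapped for 5 of the 7 genes, and for 12378 of all 26325 genes tested. None of the 7 was called in the disease comparison (differences of 0.56 to 0.83, adjusted p 0.0536 to 0.191 in limma). In the selenium comparison all 7 had normal Se GD arrays wholly below the low Se GD arrays, with differences from -1.04 to -0.85, and none was called (adjusted p 0.106 to 0.155).

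The member of the band with the lowest selenium difference was H2ac22, whose promoter is shown above. It read 6.11, 4.89 and 5.61 without disease, 5.97, 6.03 and 6.31 in low Se GD, and 5.14, 5.20 and 4.85 in normal Se GD, a selenium difference of -1.04 ± 0.29 (limma adjusted p = 0.106). All 9 arrays share 1 estimate of the spread in the fit. Across the 13 H2A genes the median SD was 0.53 without disease, 0.15 with disease on the low supply and 0.13 with disease on the normal supply, against 0.14, 0.15 and 0.24 over all genes tested.

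H2aw, at a separate locus on chromosome 11, had the highest selenium difference of the H2A genes, 0.18 ± 0.15 (limma adjusted p = 0.564). Its signals were -1.02, -0.81 and -0.83 without disease, -0.41, -0.41 and -0.43 in low Se GD, and -0.40, -0.41 and 0.11 in normal Se GD. All GD arrays lay above the disease-free arrays. It was called higher in the joint comparison (0.65 ± 0.15, adjusted p = 0.0138) and just missed in the disease comparison (0.47 ± 0.15, adjusted p = 0.056). H2ac21 was well above background on 0 of 3 disease-free arrays, 3 of 3 low Se GD arrays and 2 of 3 normal Se GD arrays, but its measured means of -5.79, -5.59 and -5.58 lay so near the detection limit that no fold is given.

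H2ac1, the testis-type H2A that replaces ordinary H2A in male germ cells, read -4.72, -4.85 and -4.93 without disease, -3.87, -4.18 and -3.98 in low Se GD, and -4.15, -3.72 and -6.39 in normal Se GD. The last value comes from normal Se GD replicate 3, the array with few probes above background. It was called in 0 of the 3 comparisons (0.82 ± 0.60 in the disease comparison, limma adjusted p = 0.363). Its divergent neighbour H2bc1, the testis-type H2B, read 0.85, 0.05 and 0.48, then 0.92, 0.95 and 1.02, then 0.43, 0.56 and 0.10 in the same order of groups. For H2bc1 the low Se GD arrays were the highest of the 9, without a call (0.50 ± 0.21, adjusted p = 0.117).

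**Figure D2:**
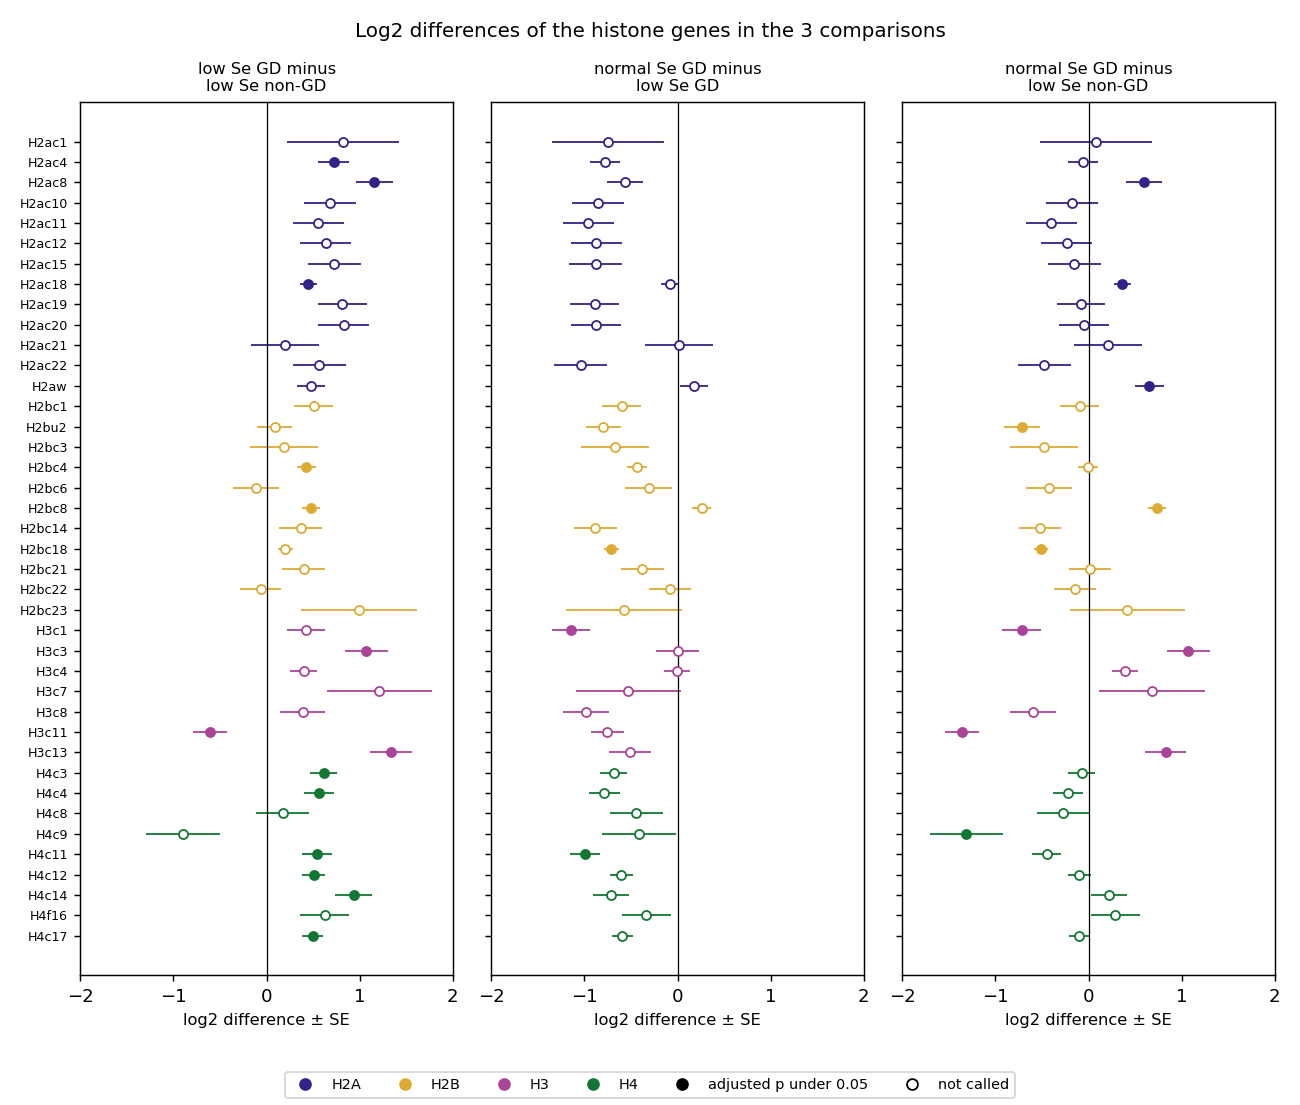
Log2 difference (x axis) with limma's standard error for each of the 40 tested histone genes (y axis) in the disease, selenium and joint comparisons from left to right, coloured by histone type, with filled points for adjusted p under 0.05. Points lie mostly right of 0 in the disease comparison (36 of 40) and left of 0 in the selenium comparison (36 of 40).

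Among the 11 H2B genes, 2 rose and 0 fell in the disease comparison, and 1 fell in the selenium comparison. The H2B medians were 0.36 for disease and -0.58 for selenium, and under normexp background correction the first turned to -0.00763. H2bc4 gave 1.64, 1.29 and 1.45 without disease, 1.87, 1.90 and 1.89 in low Se GD, and 1.47, 1.47 and 1.42 in normal Se GD. Its low Se GD arrays were the highest, and the other groups overlapped. H2bc4 rose by 0.43 ± 0.11 in the disease comparison (limma adjusted p = 0.0223), and its selenium difference of -0.43 ± 0.11 did not pass (adjusted p = 0.0842).

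H2bc8, which starts opposite H2ac8, had a selenium difference of the other sign, and neither gene was called in that comparison. Its signals were -5.03, -5.03 and -4.86 without disease, -4.59, -4.43 and -4.47 in low Se GD, and -4.32, -4.25 and -4.14 in normal Se GD. The groups were ordered without overlap, with normal Se GD highest. It rose by 0.48 ± 0.10 in the disease comparison (limma adjusted p = 0.0119) and by 0.73 ± 0.10 in the joint comparison (adjusted p = 0.00182), with a selenium difference of 0.26 ± 0.10 (adjusted p = 0.211). The probe is dim, and under normexp background correction its disease difference became -0.29 (adjusted p = 0.301).

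H2bc18, on chromosome 3, stood apart for its tight groups. It read -1.79, -1.82 and -1.89 without disease, -1.63, -1.61 and -1.66 in low Se GD, and -2.35, -2.32 and -2.35 in normal Se GD. The normal Se GD arrays lay below all 6 others. H2bc18 fell by 0.71 ± 0.08 in the selenium comparison (1.64-fold, limma adjusted p = 0.0369) and by 0.51 ± 0.08 in the joint comparison (adjusted p = 0.00281), while the disease difference of 0.20 ± 0.08 did not pass (adjusted p = 0.107).

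H2bu2, which neighbours H2aw on chromosome 11, gave -0.39, -0.91 and -0.59 without disease, -0.86, -0.49 and -0.29 in low Se GD, and -1.36, -1.18 and -1.50 in normal Se GD. Its normal Se GD arrays were the lowest and the other groups overlapped. It fell by 0.71 ± 0.19 in the joint comparison (limma adjusted p = 0.0232) and its selenium difference was -0.80 ± 0.19 (adjusted p = 0.0797). H2aw and H2bu2 were thus called in opposite directions in the joint comparison, and the difference between the 2 genes was not tested.

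H3 forms the tetramer with H4 at the centre of the nucleosome, and its 7 genes moved in both directions. In the disease comparison 2 H3 genes rose and 1 fell, with a median of 0.42. H3c13 read -0.84, -1.76 and -1.21 without disease, 0.18, -0.03 and 0.06 in low Se GD, and -0.60, -0.49 and -0.23 in normal Se GD. No groups overlapped, and normal Se GD lay between the others. H3c13 had the largest disease difference of the 40 genes, 1.34 ± 0.22 (2.53-fold, limma adjusted p = 0.0051), with a selenium difference of -0.51 ± 0.22 (adjusted p = 0.261) and a joint difference of 0.83 ± 0.22 (adjusted p = 0.025).

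H3c3 gave 1.13, 0.63 and 0.90 without disease, 1.99, 1.94 and 1.95 in low Se GD, and 2.14, 2.31 and 1.43 in normal Se GD. Both GD groups were above the disease-free arrays and overlapped each other. It rose by 1.07 ± 0.23 in the disease comparison (limma adjusted p = 0.0133) and by the same 1.07 ± 0.23 in the joint comparison (adjusted p = 0.0104). H3c7 showed a like pattern on 8 arrays (-0.01, -0.55 and -0.27, then 0.93, 0.91 and 0.96, then 1.11 and 1.24) but read -1.12 on normal Se GD replicate 3, and it was called in 0 comparisons.

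H3c11 was the 1 gene that fell with disease. It read -2.22, -2.20 and -2.29 without disease, -2.77, -2.87 and -2.89 in low Se GD, and -3.30, -3.44 and -4.04 in normal Se GD. The groups stepped down without overlap. It fell by 0.60 ± 0.18 in the disease comparison (limma adjusted p = 0.0457) and by 1.36 ± 0.18 in the joint comparison (2.56-fold, adjusted p = 0.00177). Its selenium difference was -0.75 ± 0.18 (adjusted p = 0.082). The probe was well above background on only 2 of 3 normal Se GD arrays, so the joint fold is uncertain. Its lowest value, -4.04, comes from normal Se GD replicate 3, the array with few probes above background.

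H3c1 gave -4.28, -4.28 and -4.63 without disease, -4.24, -3.85 and -3.83 in low Se GD, and -4.92, -4.90 and -5.53 in normal Se GD. Its normal Se GD arrays were below all 6 others. H3c1 fell by 1.14 ± 0.21 in the selenium comparison (2.21-fold), at the edge of the threshold (limma adjusted p = 0.0499), and by 0.72 ± 0.21 in the joint comparison (adjusted p = 0.0322). The probe is dim and was well above background on only 2 of 3 normal Se GD arrays, so the fold is uncertain. Its lowest value, -5.53, comes from normal Se GD replicate 3, the array with few probes above background. Without the filter on dim probes the selenium comparison called 0 of all 32399 genes in either direction.

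Of the 9 H4 genes 6 rose and 0 fell in the disease comparison, with a median of 0.54, and 1 fell in the selenium comparison, with a median of -0.61. H4c14 read 0.20, -0.57 and -0.19 without disease, 0.76, 0.73 and 0.75 in low Se GD, and 0.07, 0.22 and -0.19 in normal Se GD. The low Se GD arrays lay above all 6 others. It rose by 0.93 ± 0.20 in the disease comparison (limma adjusted p = 0.012), with a selenium difference of -0.71 ± 0.20 (adjusted p = 0.106).

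H4c3 gave -0.43, -0.95 and -0.69 without disease, 0.08, -0.12 and -0.18 in low Se GD, and -0.81, -0.68 and -0.79 in normal Se GD, and rose by 0.61 ± 0.15 with disease (limma adjusted p = 0.0191). H4c4 gave 0.42, -0.18 and 0.11, then 0.80, 0.60 and 0.64, then -0.04, -0.01 and -0.28, and rose by 0.56 ± 0.16 (adjusted p = 0.0393). For both genes the low Se GD arrays were the highest 3 of the 9. H4c12 (0.50), H4c17 (0.49) and H4c11 (0.54) rose as well, with adjusted p from 0.0168 to 0.0416. Under normexp background correction the disease difference of H4c17 became 0.15.

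H4c11 was the only gene of the 40 called in both the disease and the selenium comparison. It read -0.87, -1.45 and -1.17 without disease, -0.55, -0.66 and -0.64 in low Se GD, and -1.54, -1.49 and -1.82 in normal Se GD. All normal Se GD arrays lay below all others. It rose by 0.54 ± 0.16 with disease (limma adjusted p = 0.0416), and with normal selenium it fell by 1.0 ± 0.16 (1.99-fold, adjusted p = 0.0438). Both calls use the same low Se GD arrays.

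H4c9 went against the other H4 genes by the probe that represents it. This probe read 1.24, 1.1 and 1.07 without disease, 0.81, -0.09 and -0.00242 in low Se GD, and 0.40, 0.16 and -1.08 in normal Se GD, so the disease-free arrays were the highest. H4c9 was called lower in the joint comparison (-1.31 ± 0.39, limma adjusted p = 0.0372) and not in the disease comparison (-0.90 ± 0.39, adjusted p = 0.139). Its second probe read -2.13, -2.42 and -2.22 without disease, -1.62, -1.75 and -1.87 in low Se GD, and -2.39, -2.16 and -2.47 in normal Se GD. With each probe tested alone, that second probe was called higher in the disease comparison (0.51 ± 0.13, adjusted p = 0.0231).

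The probes of H4c14 disagreed more sharply. The second probe, which does not represent the gene, read -0.74, 0.60 and -0.12 without disease, -1.77, -2.17 and -2.29 in low Se GD, and -2.31, -2.63 and -2.99 in normal Se GD. With each probe tested alone it fell by 1.99 ± 0.34 in the disease comparison (3.97-fold, limma adjusted p = 0.00542), where the first probe rose by 0.93 ± 0.20 (adjusted p = 0.0119). When the probes of a gene were averaged, the disease difference of H4c14 became -0.53 (adjusted p = 0.0398), so its direction depends on the probe. The probes of H4c12 were called higher together (0.50 and 0.61), and those of H2ac15 had positive disease differences of 1.17 and 0.73, of which the first was called.

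**Figure D3:**
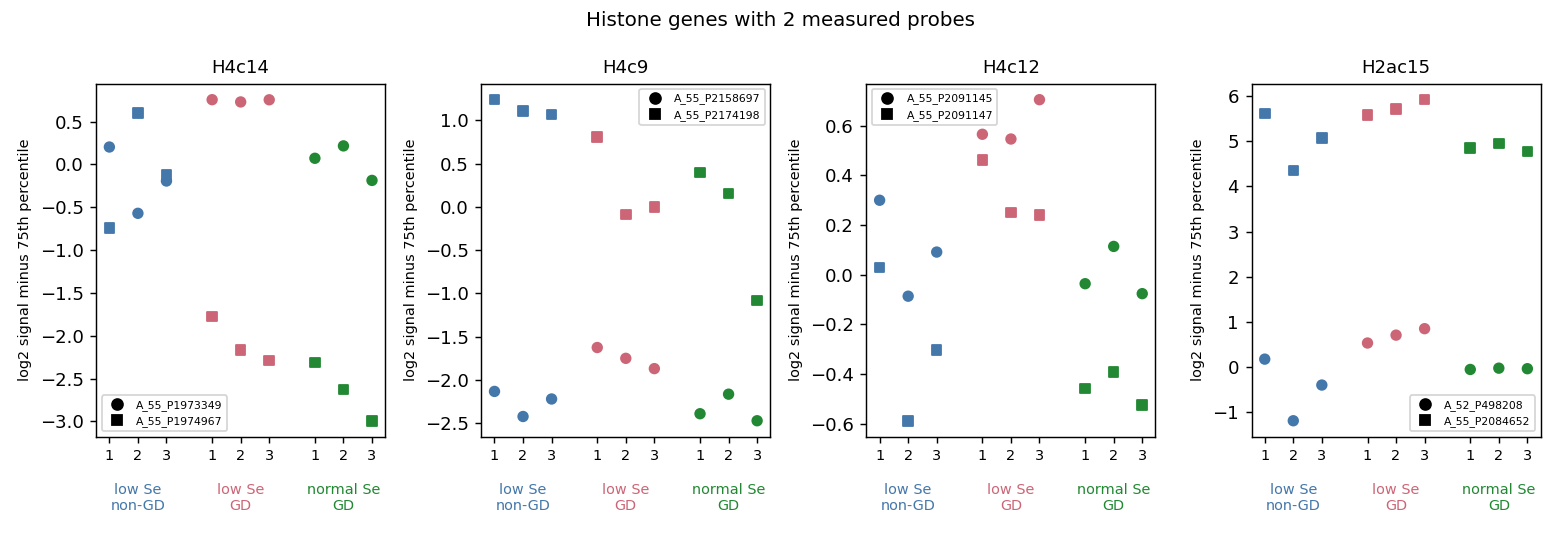
Log2 signal minus the 75th percentile of the array (y axis) for the histone genes with 2 tested probes, by array (x axis: replicate number within each group), with circles and squares for the probes of 1 gene. The probes of H4c14, and those of H4c9, run in opposite directions between the low Se non-GD and low Se GD arrays, whereas those of H4c12 and H2ac15 run alike.

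Within a slide, fewer arrays but no difference of slide enter the selenium comparison. On slide 2 alone, with 2 arrays in each group, 25 of the 40 histone genes were called lower and 0 higher in limma (adjusted p of the called genes 0.0357 to 0.0495), where 4.81% of all genes were called lower and 5.81% higher. These were 9 of 13 H2A, 5 of 11 H2B, 4 of 7 H3 and 7 of 9 H4 genes. The median difference was -0.59 against 0.12 over all genes, close to the -0.64 of all 9 arrays. The low Se non-GD arrays and normal Se GD replicate 3 do not enter this fit, and with 2 arrays a group the spread is estimated from few values.

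**Figure D4:**
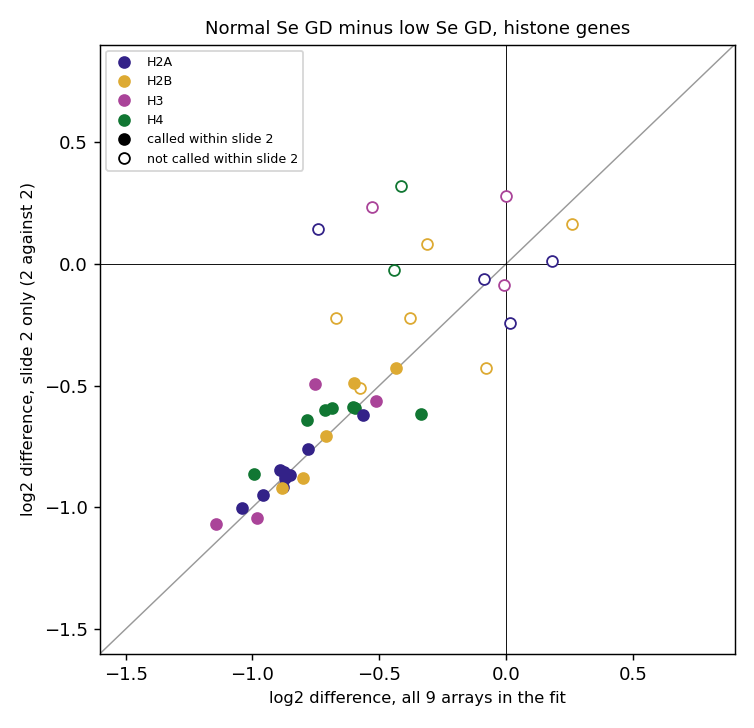
Log2 difference of normal Se GD against low Se GD for the 40 histone genes on slide 2 alone, with 2 arrays in each group (y axis), against the difference with all 9 arrays in the fit (x axis), coloured by histone type and filled where called within slide 2. Most points lie near the diagonal in the lower left, and the 25 called genes all lie below 0.

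With slide as a block in the disease comparison, 9 histone genes were called higher, where 15% of all genes were. H3c3, H3c13, H2ac18, H2bc8, H4c3 and H4c17 were among them, while the adjusted p was 0.0512 for H2ac8, 0.0561 for H4c14, 0.0678 for H4c4, 0.0821 for H2bc4, 0.0826 for H4c11, 0.0938 for H4c12 and 0.0994 for H2ac4. Within slide 1, which holds only 1 low Se GD array, 0 were called, and 1.57% of all genes were called higher and 2% lower. In the selenium comparison with the block, 1 H2B and 2 H3 genes were called lower, where 1.79% of all genes were called lower and 4.72% higher. Among them were H2bc18 and H3c1 (limma adjusted p of 0.0289 and 0.0299), while H4c11 did not pass (0.0516). In the joint comparison, whose groups share no slide, the block took the adjusted p of H2aw to 0.0621, of H2ac8 to 0.55, of H3c13 to 0.194 and of H4c9 to 0.974.

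The number of genes called higher with disease depended on single arrays. It was 23 without low Se non-GD replicate 1, where 12.1% of all genes were called higher, and 20 without normal Se GD replicate 3, where 22.4% were. It was 8 without low Se GD replicate 3 (8.88% of all genes), 7 without low Se non-GD replicate 2 (8.12%), 5 without low Se non-GD replicate 3 (5.98%) and 4 without low Se GD replicate 2 (5.67%). H2ac8, H3c3, H3c13 and H4c14 passed whichever single array was left out. Without both in-between arrays (replicate 3 of low Se non-GD and replicate 2 of low Se GD) 0 of the 40 were called higher, where 0.247% of all genes were, and the median difference was 0.52 against 0.50 with them. The 3 selenium calls were lost on leaving out any 1 of 8 arrays, each of which left at most 1 gene of the whole array called, and without normal Se GD replicate 3 there were 5, with 1.2% of all genes called lower.

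The disease-free arrays differed among themselves for nearly all of these genes. Low Se non-GD replicate 1 was the highest of its group for 36 of the 40 genes (45.1% of all genes tested) and replicate 2 the lowest for 30 (41.5%). Each of the 9 H4 genes was highest on replicate 1. In the normal Se GD group, replicate 3 was lowest for 28 of the 40 (53.4% of all genes).

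Genes that act on histone transcripts gave calls in both directions, as did all genes tested. SLBP, encoded by Slbp, binds the stem-loop, and Slbp read 1.89, 0.68 and 1.34 without disease, 1.18, 1.56 and 1.78 in low Se GD, and 1.30, 1.25 and 1.43 in normal Se GD. These groups overlapped, and Slbp was not called in the disease comparison (0.20, limma adjusted p = 0.66) or in the other comparisons. Npat was dim and was not called (disease difference 0.23, adjusted p = 0.568). Casp8ap2, whose product FLASH takes part in 3′ end cutting, rose from -0.80, -0.96 and -0.91 to -0.37, -0.10 and 0.06 with disease (0.75 ± 0.13, adjusted p = 0.00555). In normal Se GD it read -0.51, -0.42 and -0.29, overlapping low Se GD.

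Of the 22 genes of histone transcription and 3′ end processing, 7 rose and 2 fell in the disease comparison (median 0.24). Of all genes tested, 12.8% rose and 12.2% fell there. In the selenium comparison 0 of the 22 were called (median -0.05), where 1 had an unadjusted p under 0.05 in limma. Of all 26325 genes tested, 5112 had such a p for selenium, in either direction. Upf1, a helicase of histone transcript decay, rose by 0.76 and Zfp473, a zinc finger protein of the processing complex, by 0.68, whereas Gon4l fell by 1.53 and Srrt by 0.43. Of 18 histone chaperones and partners, 7 rose and 0 fell with disease (median 0.30), and 0 were called for selenium in limma, where 1 had a positive and 5 a negative difference at an unadjusted p under 0.05. The chaperone gene Asf1a rose by 1.15, Rbbp4 by 0.94 and Hira, which deposits H3.3, by 0.65.

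Histone genes other than the 41 core histone genes also included members that rose with disease, where 12.8% of all genes rose and 12.2% fell. Among 11 replication-independent and variant histones 4 rose and 0 fell, namely Cenpa (0.99), H2aj (0.89), H2az1 (0.74) and H3f3a (0.74), with a list median of 0.44. For selenium 0 were called (median -0.27), and 2 had an unadjusted p under 0.05 in limma, as had 5112 of all 26325 genes tested. Of 6 clustered linker histones, which bind DNA between nucleosomes, 5 were tested, and H1f4 (1.12), H1f1 (0.96) and H1f2 (0.94) rose while the testis type H1f6 fell by 2.32. H1f2 read 0.63, 0.37 and 0.48 without disease, 1.67, 1.42 and 1.22 in low Se GD, and 1.42, 1.43 and 1.51 in normal Se GD, so that both GD groups lay above the disease-free arrays.

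Genes of DNA replication and division had medians of the same sign as the histone genes in each comparison. For disease 12.8% of all genes were called higher and 12.2% lower, and for selenium 0.976% and 0.292%. An unadjusted p under 0.05 in limma was found, in either direction, for 9908 of the 26325 genes with disease and for 5112 with selenium. Of 34 S phase genes, 6 rose and 0 fell with disease (median 0.50), and 0 were called for selenium (median -0.68) in limma, although 22 had a negative difference at an unadjusted p under 0.05. Dut, which clears dUTP, rose by 1.0, Mcm7 of the replicative helicase by 0.94 and the E2F factor gene E2f2 by 0.88. Of 20 mitosis genes 0 were called in either comparison, with medians of 0.64 and -0.76 and, at an unadjusted p under 0.05 in limma, 5 positive differences for disease and 10 negative ones for selenium. The summed S phase level, the log2 of the sum of the scaled signals of the list, was 7.42, 6.50 and 7.01 without disease, 7.27, 7.55 and 7.72 in low Se GD, and 6.75, 6.77 and 6.85 in normal Se GD, and the mitosis level was 6.59, 5.27 and 6.06, then 6.06, 6.41 and 6.63, then 5.43, 5.42 and 5.69. Both sums had low Se non-GD replicate 2 low and replicate 1 high, as the histone genes did. Their part in the histone differences was not tested.

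**Figure D5:**
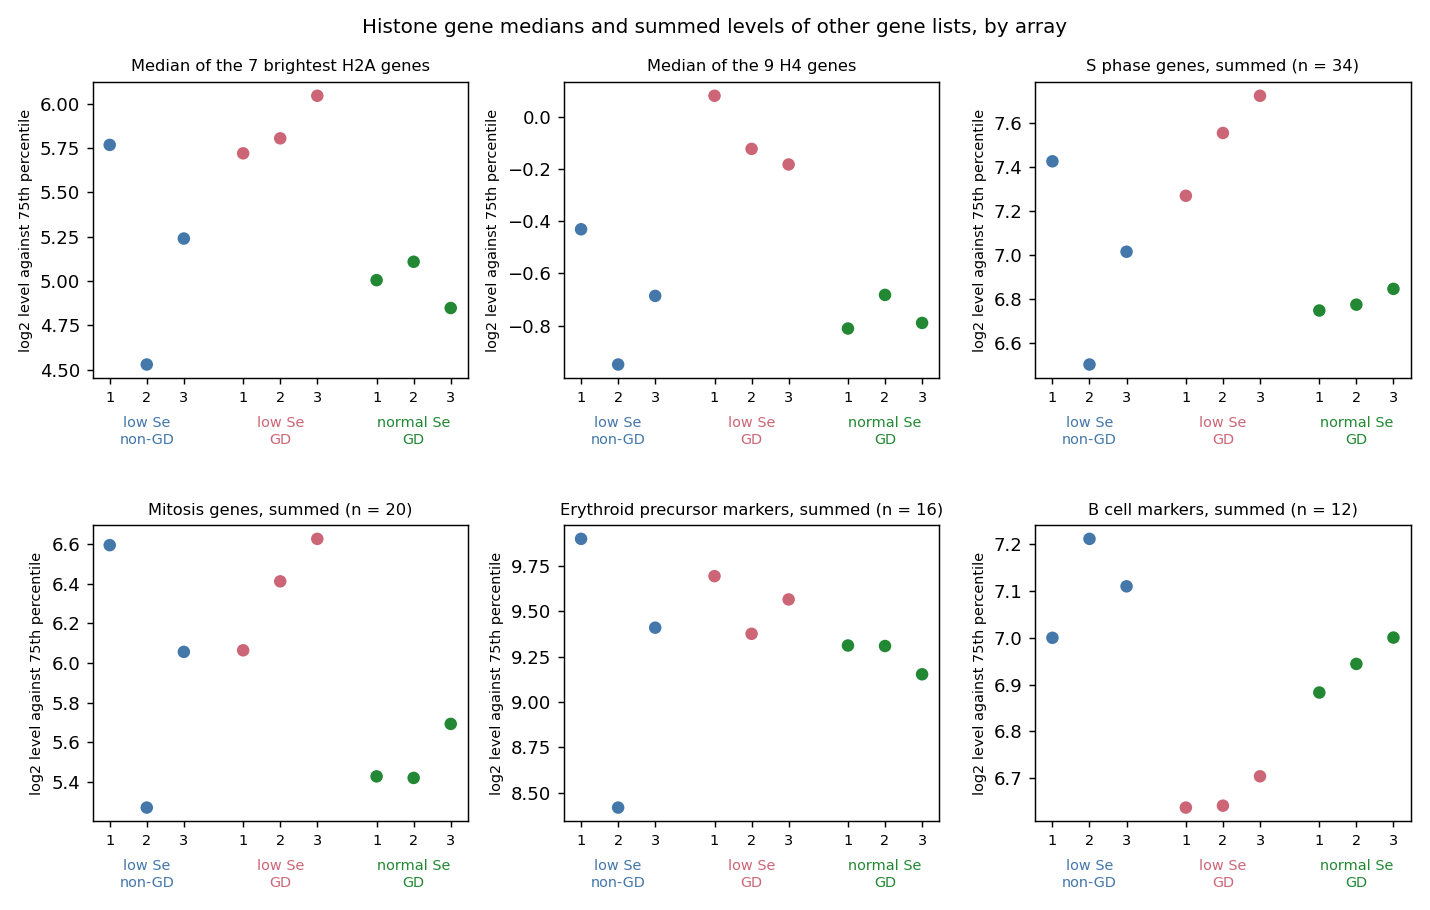
Median of the 7 strong H2A probes and of the 9 H4 genes, and summed levels of S phase genes, mitosis genes, erythroid precursor markers and B cell markers, on a log2 scale against the 75th percentile of the array (y axis) by array (x axis: replicate number within each group). The 3 normal Se GD arrays lie below the 3 low Se GD arrays in all panels but that of B cell markers, where they lie above.

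Markers of the cells a spleen holds differed between the groups too. Among all genes tested, 12.8% rose and 12.2% fell with disease, and 0.976% rose and 0.292% fell for selenium. At an unadjusted p under 0.05 in limma, in either direction, there were 9908 of 26325 genes for disease and 5112 for selenium. Of 16 erythroid precursor markers 0 were called with disease (median 0.75) or for selenium (median -1.05) in limma, with 2 and 9 at an unadjusted p under 0.05, and their summed level was 8.42 to 9.90 without disease, 9.38 to 9.69 in low Se GD and 9.15 to 9.31 in normal Se GD. Of 12 B cell markers 5 fell and 0 rose with disease (median -0.45), and 2 rose for selenium (Fcer2a and Blk), with summed levels of 7.0 to 7.21 without disease, 6.64 to 6.70 in low Se GD and 6.88 to 7.0 in normal Se GD. Of 11 macrophage markers 8 rose and 0 fell with disease (median 1.02), from 5.44 to 5.91 without disease to 6.46 to 6.70 in low Se GD and 6.60 to 6.89 in normal Se GD. Of 8 plasma cell markers 4 rose and 0 fell with disease (median 0.58), with sums of 4.74 to 4.99, 5.29 to 5.43 and 5.66 to 5.81. No marker of these 4 lists was at background on all arrays, and their part in the histone differences was not tested.

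Of 8 fat tissue markers 5 rose and 1 fell with disease and 1 fell for selenium (medians 2.32 and -2.22), with summed levels of 1.53 to 2.66 without disease, 6.12, 5.12 and 2.93 in low Se GD, and 0.61 to 0.72 in normal Se GD. Low Se GD replicate 1, highest in this sum, was the lowest of its group for 9 of 13 H2A, 9 of 11 H2B, 2 of 7 H3 and 0 of 9 H4 genes and the highest for 3, 1, 4 and 7 of them. Over all genes tested this array was the lowest of its group for 39.8% and the highest for 47%. T cell markers gave 0 calls of 12 with disease (median -0.03) and 0 for selenium in limma, with 2 and 0 at an unadjusted p under 0.05. Germinal centre B cell markers gave 1 higher and 1 lower of 8, neutrophil markers 2 higher and 1 lower of 10, and male germ cell markers 0 of 6, in the disease comparison, with 0 calls in each list for selenium. The shares over all genes tested were 12.8% higher and 12.2% lower for disease. An unadjusted p under 0.05 in limma was found for 9908 of the 26325 genes for disease and 5112 for selenium. The part of these lists in the histone differences was not tested.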

How the data were processed

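Total RNA of 9 spleen samples was hybridised to Agilent 1-colour mouse arrays, and groups come from the labels. The authors deposited scanner output with a linear intensity for each spot, from which Agilent Feature Extraction 11.0.1.1 had subtracted background, per the file headers, and 0 or 1 marks for outlier and well-above-background spots. The authors' log2 table (39485 rows, median 6.43 in each column, made in a way not given in the sources used here) served as an alternative. Of its 9 columns, 6 matched their own array best, and the 3 low Se non-GD columns matched another array of their group best (rank correlation 0.997 to 0.998, against 0.980 to 0.987 with their own), so replicate numbers of that group are uncertain.

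Processed intensities were taken as log2 minus the 75th percentile of the array over 43020 non-control spots. Outlier spots were left out, spots of 1 probe averaged, and a gene represented by its brightest probe by mean over 9 arrays. Accessions named 27234 of 39429 probes through a RefSeq table of GRCm38.p6. Genes well above background on fewer than 3 of 9 arrays (6078) or missing a value (48) were left out, which left 26325. The arrays' number limits the precision, and 0 spots were saturated. Tests used lmFit and eBayes of limma 3.58.1 (R 4.3.3), 2-sided, with 6 residual degrees of freedom, Benjamini-Hochberg adjustment over the 26325 genes and 0.05 as threshold, and the fit was tested on simulated data. The alternatives covered background correction, scaling, filter, probes, slide, replicate block and arrays left out. Normexp used an offset of 50 on median foreground and background signals, as the files hold no mean signal.

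Named histone genes were, for each type and comparison, up to 3 past the threshold with the largest change and no overlap of groups, or the largest change in each direction where there was none. To these were added genes with probes called in opposite directions, genes above background in 1 group only, H2ac1 and H2bc1. H2ac15, H4c12 and H3c7, and the other H2A probes of strong signal, were named after their values were seen. Members, lists and rules were chosen with earlier results of these data known.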

Additional observations from a re-analysis of the deposited data

How the results depend on the processing

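For the disease comparison, the 13 histone genes called higher became 0 within 1 slide, 0 without both in-between arrays (1.57% and 0.247% of all genes) and 3 when normal Se GD replicate 3 was left out as well, an alternative chosen after seeing the data. In the last of these 3.73% of all genes were called higher. Leaving out 1 array gave 4 to 23, where 5.67% to 22.4% of all genes were called higher. The 1 gene called lower became 0 with no filter on dim probes, with the filter on all 9 arrays, within 1 slide, with the replicate block and without both in-between arrays, and 2 with the mean of the probes, with each probe on its own and with only the 2 groups compared (0 to 2 on leaving out 1 array). The gene called lower, H3c11, did not pass the filter on all 9 arrays and was not tested there. The median of 0.50 ranged from 0.37 to 0.67 on leaving out 1 array. For the selenium comparison, the 3 genes called lower became 10 with the filter on all 9 arrays and 25 within 1 slide (1.91% and 4.81% of all genes), and 0 with normexp, with the authors' log2 table, with no filter, with only the 2 groups compared, with the replicate block and without the in-between arrays, with or without normal Se GD replicate 3 (0 to 5 on leaving out 1 array). Under these settings with 0 histone calls at most 1 gene of the whole array was called lower. The median of -0.64 became -0.39 with normexp. For the joint comparison, the 6 genes called higher became 1 without both in-between arrays (6.24% of all genes). On leaving out 1 array they became 3 to 7, where 11.7% to 27.2% of all genes were called higher. The 5 called lower became 3 with only the 2 groups compared (10.5% of all genes). Without both in-between arrays there were 2 (5.33%), also when normal Se GD replicate 3 was left out too (9%). On leaving out 1 array there were 2 to 8, where 8.84% to 16.6% of all genes were called lower. The median of -0.10 ranged from -0.27 to 0.092 and changed sign, to 0.092, without low Se non-GD replicate 1. Of single called genes, H2bc8 turned to -0.29 with normexp and H4c14 to -0.53 with the mean of its probes, both in the disease comparison. Calls lost more often than kept were, in the disease comparison, those of H3c11 (lost 11, kept 10), H4c4 (13, 9) and H4c11 (14, 8), in the selenium comparison H2bc18 (15, 7), H3c1 (16, 5) and H4c11 (17, 5), and in the joint comparison H2ac8 (18, 2) and H4c9 (12, 9). Over all called genes and the alternatives not chosen after seeing the data, 378 values kept their direction and their side of the threshold, 189 kept the direction only and 2 reversed. Apart from the settings built on fewer arrays, the cause was not tested.

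As the arrays are labelled, same-numbered replicates did not pair (correlations of deviations -0.21 to 0.10). The replicate numbers of the low Se non-GD group are uncertain, however. With the arrays that its columns of the authors' log2 values matched best, its correlations with the GD arrays were 0.00371 to 0.236. Whether replicates pair was therefore not settled. By the array labels, the replicate block gave 10 genes called higher for disease, 0 for selenium and 4 higher and 4 lower in the joint comparison. Of all genes, 9.12% were called higher for disease, 0% for selenium, and 15.5% higher and 11.8% lower in the joint comparison. A within-slide value for the joint comparison and an alternative by the gene names of the array design were not run, because no slide holds both groups and that column was not used here. Signal over background limits the dim genes most: on normal Se GD replicate 3, 31 of 41 histone genes were well above background.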

Other observations

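The core histone genes lie in separate clusters, and values were set out by chromosome as a description. Of the tested genes, 29 are on chromosome 13 and 8 on chromosome 3. In the disease comparison 10 of the 29 and 3 of the 8 were called higher in limma, with medians of 0.50 and 0.63. Of all genes tested 12.8% were, with a median of 0.08. In the selenium comparison 2 of the 29 and 1 of the 8 were called lower, with medians of -0.67 and -0.61. Of all genes tested 0.292% were, with a median of 0.00. The median level of the chromosome 3 genes was -0.32, -1.16 and -0.70 without disease, 0.47, 0.35 and 0.41 in low Se GD, and -0.26, -0.14 and -0.21 in normal Se GD, so that all GD arrays lay above the disease-free arrays. For the chromosome 13 genes the normal Se GD medians (-0.81, -0.68 and -1.12) overlapped the disease-free ones (-0.43, -0.95 and -0.69). The difference between the clusters was not tested.

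Divergent neighbours with start sites within 1000 bases of each other did not always share a direction. H2ac8 and H2bc8 had disease differences of 1.16 and 0.48 but selenium differences of -0.56 and 0.26. H2ac22 and H2bc22 had selenium differences of -1.04 and -0.08, and H2ac1 and H2bc1 of -0.74 and -0.60. None of these selenium differences was called, and differences within a pair were not tested.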
